A study of Homo sapiens with 36 samples.

Results

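The collagen genes are the 44 of 58721 gene rows whose symbol consists of COL, a number, A and a number, so that each row is the gene of 1 collagen chain. Antisense genes, pseudogenes and COL4A3BP, whose symbols also begin with COL and a digit, were left out by that pattern (9 of 53 such rows). By the textbook classes 11 genes are fibrillar (COL1A1, COL1A2, COL2A1, COL3A1, COL5A1, COL5A2, COL5A3, COL11A1, COL11A2, COL24A1 and COL27A1). Another 8 belong to basement membranes (COL4A1 to COL4A6, COL15A1 and COL18A1), and the other 25 comprise beaded filament, fibril-associated, short-chain network, anchoring fibril and transmembrane collagens and 2 genes left unplaced, COL26A1 and COL28A1. All 44 had a row for every library, in some cases with 0 counts, and 42 had enough counts to be tested. COL22A1 and COL6A5 did not.

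RNA was sequenced from H1, an established human embryonic stem cell line, as wild type cells and as cells labelled PERK KO, at days 0, 1, 2, 3, 5 and 10 of differentiation toward cardiomyocytes, with 3 libraries in each of the 12 groups. Both genotypes received the WNT activator CHIR99021 first and the WNT inhibitor IWP2 later, in a medium with ascorbic acid. PERK, the product of EIF2AK3, is a kinase that senses unfolded proteins in the endoplasmic reticulum. How the gene was disrupted, how many clones were used and whether replicates were separate cultures is not stated by the labels or the design text, so p-values measure only the spread between these libraries, which may be technical.

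Collagens are proteins of 3 chains wound into a triple helix. The chains are hydroxylated, glycosylated and folded in the endoplasmic reticulum before export, which makes them among the most demanding cargoes of that organelle. Fibrillar collagens form the load-bearing fibres of connective tissue, type IV collagen forms the sheet of basement membranes on which epithelia, endothelia and muscle cells rest, and type VI collagen links both. In the developing heart collagens are made by mesenchymal, endocardial, epicardial and muscle cells.

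Libraries held 14002137 to 25860481 counts. PERK KO day 0 replicate 2 stood apart. Its mean effective gene length was 1736 nucleotides, against 2342 or more in the other libraries of that day. Wild type day 2 replicate 3 differed more from its replicates than the other libraries of its day. Its chi-square per degree of freedom over genes was 76 and 71 against replicates 1 and 2. Wild type day 3 also varied, at 89.5 between replicates 1 and 3. EIF2AK3 itself was not called at any day, with group means of 10.7 to 22.1 CPM in wild type and 14.6 to 22.0 CPM in PERK KO libraries. Its transcript level therefore does not check the labels. Pluripotency markers (6 of 6 above 1 CPM) summed to 6250 to 6700 CPM in wild type and 6870 to 8010 CPM in PERK KO libraries at day 0. These are bulk samples, in which fewer cells of a type and less RNA per cell cannot be told apart.

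Collagen transcripts were counted per length, in the deposited TPM. Summed over the 44 genes they went in wild type libraries from 713 ± 4.65 TPM at day 0 to 4430 ± 409 TPM at day 10 (SD, n = 3), a 6.21-fold difference between means. In PERK KO libraries the values were 514 ± 174 TPM at day 0 and 1240 ± 89.5 TPM at day 10. The sum over fibrillar genes separated the genotypes most: at day 3 it was 1060 ± 31.9 TPM in wild type and 68.6 ± 0.796 TPM in PERK KO libraries, and at day 10 it was 1840 ± 221 TPM and 469 ± 76.5 TPM. These sums are levels and were not tested. The day 0 mean of the PERK KO libraries rests in part on replicate 2, at 316 TPM against a highest library of 639 TPM.

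**Figure D1:**
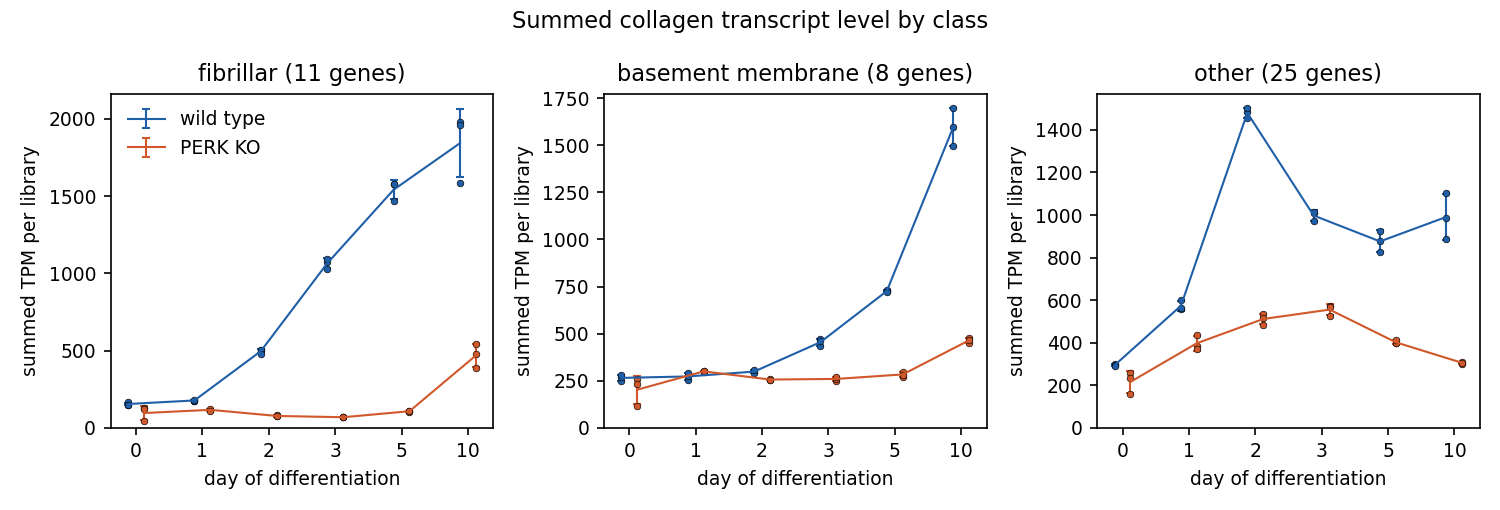
Summed TPM of the fibrillar, basement membrane and other collagen genes in each library (points) with the group mean and SD (lines and bars), by day on an evenly spaced axis. Fibrillar sums at day 3 were 1030 to 1090 TPM in wild type and 68.1 to 69.5 TPM in PERK KO libraries, while the basement membrane sums at day 1 were 254 to 290 TPM and 297 to 302 TPM.

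The composition of the collagen pool also shifted. In wild type libraries the other collagens made up 65.1% ± 0.66 of the pool at day 2, led by COL6A1, and fibrillar collagens 49.0% ± 1.2 at day 5. In PERK KO libraries the fibrillar share was 7.77% ± 0.279 at day 3 and 37.7% ± 3.54 at day 10, when COL2A1 alone had a mean of 286 TPM. Basement membrane genes held 36.1% ± 1.37 of the pool in wild type and 37.6% ± 2.02 in PERK KO libraries at day 10, although their summed level was 1490 to 1700 TPM in the former and 451 to 477 TPM in the latter.

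Levels were compared between genotypes at each day with edgeR's quasi-likelihood test, and a gene is called where its Benjamini-Hochberg adjusted p over all 19772 tested genes is under 0.05. At day 0, 9 of the 42 tested collagen genes were called (2 higher and 7 lower in PERK KO), beside 21.1% of all tested genes (12.5% higher and 8.64% lower). At day 1, 9 were called (2 higher, 7 lower), beside 15.8% of all genes (8.11% higher and 7.72% lower). At day 2 the count was 21 (5 higher, 16 lower), beside 42.6% of all genes (20.9% higher and 21.7% lower). The day 0 and day 1 shares of collagen genes, both 21.4%, lie near the share over all genes. At day 0 the count was 6, beside 25.5% of all genes, without the PERK KO library that stood apart and wild type day 2 replicate 3. It was 4, 4 or 5 without wild type day 0 replicate 1, 2 or 3, runs whose shares over all genes are not given here. In an edgeR fit to the 6 day 0 libraries alone the count was 0, beside 1.87% of 16248 genes. That fit gave 7 collagen genes an unadjusted p under 0.05, beside 3677 of all genes. DESeq2 on all libraries called 10, beside 23.0% of all genes.

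From day 3 most collagen genes differed between genotypes. At day 3, 34 were called (8 higher, 26 lower), beside 45.1% of all genes (21.9% higher and 23.2% lower). At day 5, 36 were called (10 higher, 26 lower), beside 59% of all genes (28.6% higher and 30.5% lower). Day 10 had 34 calls (10 higher, 24 lower), beside 67.3% of all genes (33.3% higher and 34% lower). Lower calls outnumbered higher ones, with 61.9% of tested collagen genes lower at days 3 and 5 and 57.1% at day 10. Median log2 fold changes over the 42 genes were -0.8, -0.9 and -1.21 at those days, and medians over all genes were -0.03, -0.02 and 0.

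The calls were also counted by class. Over all genes 21.7%, 23.2%, 30.5% and 34% were lower and 20.9%, 21.9%, 28.6% and 33.3% higher at days 2, 3, 5 and 10. Medians over all genes were 0, -0.03, -0.02 and 0 at those days. Of the 11 fibrillar genes 7, 10, 8 and 7 were lower in PERK KO at days 2, 3, 5 and 10, with class medians of -0.93, -3.39, -3.27 and -3.07 on the log2 scale. Of the 8 basement membrane genes 1, 5, 5 and 6 were lower at those days, with medians of -0.11, -0.78, -0.69 and -1.39. Of the 23 other genes tested 8, 11, 13 and 11 were lower and 5, 7, 7 and 7 were higher, with medians of -0.45, -0.49, -0.67 and -0.53. Higher calls thus came mostly from the other collagens, the largest class. Of its tested genes 21.7%, 30.4%, 30.4% and 30.4% were higher at days 2, 3, 5 and 10. Those shares lay near or below the shares over all genes except at day 3.

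**Figure D2:**
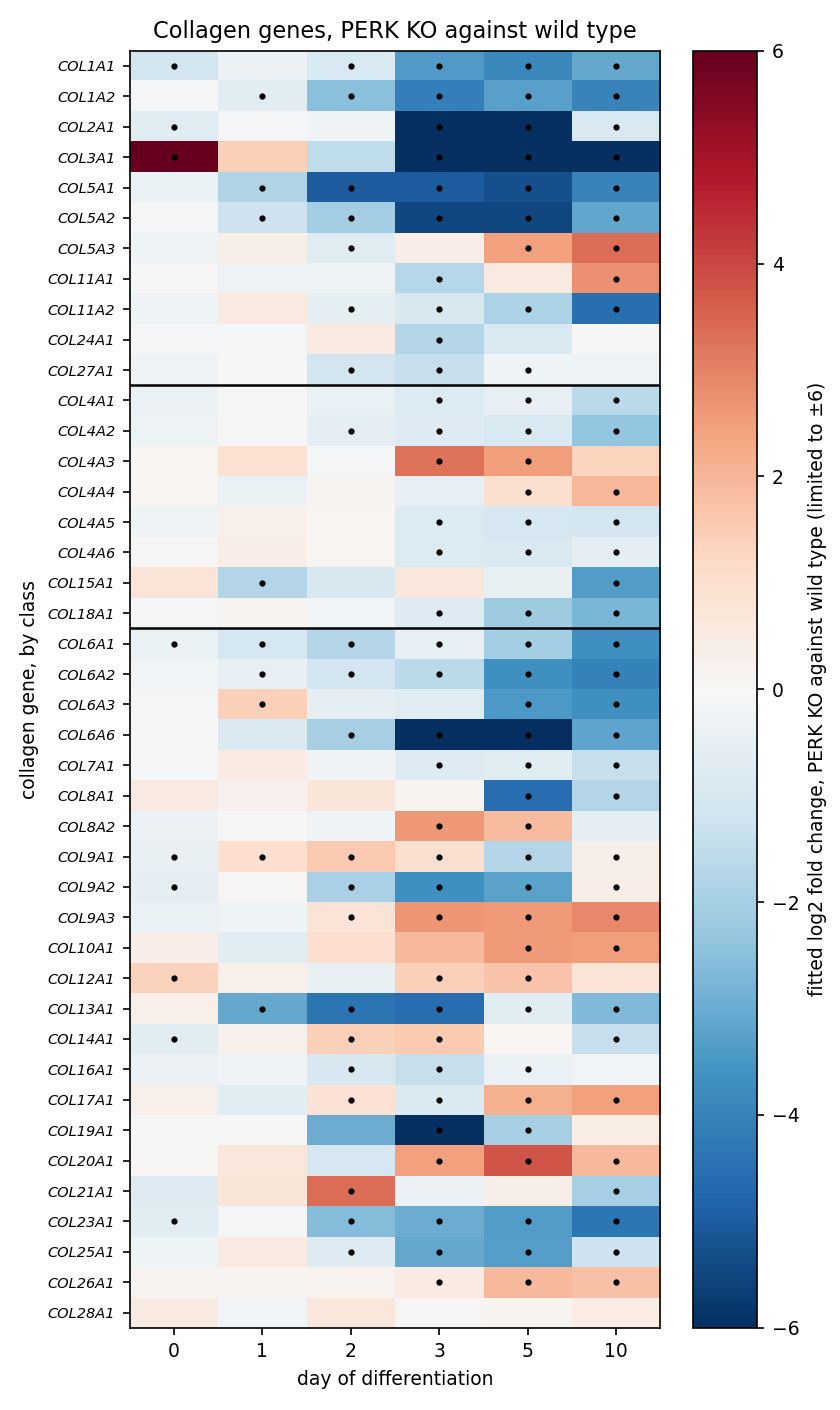
Fitted log2 fold change of PERK KO against wild type for the 42 tested collagen genes (rows, horizontal lines between fibrillar, basement membrane and other genes) at each day (columns), with colours limited to ±6 and a dot where the edgeR adjusted p is under 0.05. At day 3, 10 of the 11 fibrillar rows are blue (lower) with a dot, while COL5A3 is red (higher) with a dot at days 5 and 10 and COL11A1 at day 10, and COL9A3 is red (higher) from day 2 to day 10.

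COL1A1 and COL1A2 encode the 2 chains of type I collagen, the most abundant fibrillar collagen of the body. COL1A1 (chromosome 17, 50183289 to 50201632, minus strand, GRCh38) stood at 254, 245 and 242 CPM in the 3 wild type libraries at day 0 and at 132, 72.5 and 139 CPM in the PERK KO libraries. At day 5 it stood at 3440, 2800 and 2790 CPM in wild type and 190, 211 and 225 CPM in PERK KO libraries. The genotypes did not overlap at either day, and COL1A1 was lower in PERK KO by a log2 fold change of -1.11 ± 0.21 (SE) at day 0 (adjusted p = 0.000287) and -3.85 ± 0.23 at day 5 (adjusted p = 4.56e-15). At day 0, the log2 fold change was -0.86 without the PERK KO library that stood apart, and a fit to the 6 day 0 libraries alone gave -1.1 with an adjusted p of 0.0706.

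Within wild type, COL1A1 first fell and then rose. It fell by 2.47 ± 0.22 on the log2 scale from day 0 to day 1 (adjusted p = 1.23e-10) and was higher than at day 0 by 3.61 ± 0.23 at day 5 (adjusted p = 1.33e-14). PERK KO libraries showed the early fall too, by 1.7 ± 0.21 at day 1 (adjusted p = 1.9e-07), but the day 5 rise was 0.86 ± 0.21 (adjusted p = 0.00105). Comparisons against day 0 share the day 0 libraries.

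COL1A2 (chromosome 7, 94394561 to 94431232, plus strand) had no such early fall. In wild type libraries it stood at 150, 123 and 121 CPM at day 0, 654, 602 and 766 CPM at day 2 and 1330, 1440 and 1670 CPM at day 10. Between these days it stood at 1040, 1240 and 1290 CPM at day 3 and, lower again, at 603, 525 and 591 CPM at day 5. On days 0, 2 and 10 the PERK KO counterparts were at 137, 89.7 and 131 CPM, then 104, 126 and 128 CPM, then 100, 63.3 and 107 CPM. Wild type levels thus had a dip at day 5, and the PERK KO levels lay between 57.1 and 137 CPM outside day 1, when they were 175 to 205 CPM. The log2 fold change between genotypes was -2.5 ± 0.17 at day 2 (adjusted p = 1.31e-13), -4.09 ± 0.18 at day 3 (adjusted p = 3.88e-18) and -4.03 ± 0.18 at day 10 (adjusted p = 4.97e-18).

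The ratio of the type I chain transcripts, taken per length, therefore changed with the day. In wild type libraries the TPM ratio of COL1A1 to COL1A2 on days 0, 2, 5 and 10 was 1.39 ± 0.233, 0.0715 ± 0.0174, 3.95 ± 0.465 and 0.655 ± 0.117 (SD, n = 3). In PERK KO libraries it was 0.688 ± 0.113, 0.259 ± 0.054, 2.49 ± 0.143 and 1.37 ± 0.315. Both genotypes had their lowest mean ratio at day 1 or 2 and their highest at day 5. At each of the 6 days the 3 libraries of one genotype lay wholly to one side of the other, which gives a two-sided exact permutation p of 0.1, the smallest that 3 against 3 allows (0.138 after adjustment over 18 ratio tests).

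COL2A1, the chain of type II collagen of cartilage, which is also made in the embryonic heart and notochord, had the largest fibrillar difference at day 5 after COL3A1. Wild type libraries held 8.53, 8.57 and 11.5 CPM at day 2, 1210, 1080 and 1020 CPM at day 5 and 908, 1050 and 1300 CPM at day 10. Knockout libraries held 7.9, 7.72 and 8.41 CPM, then 3.62, 4.54 and 4.09 CPM, then 570, 466 and 671 CPM. The rise was seen in both genotypes by day 10, but at day 5 PERK KO libraries were still below their day 2 values. The log2 fold change was -8.08 ± 0.25 at day 5 (adjusted p = 3.8e-21) and -0.93 ± 0.18 at day 10 (adjusted p = 5.81e-05). Markers of cartilage other than collagens (4 genes) summed to 24.1 to 25.2 CPM in wild type and 27.8 to 30.0 CPM in PERK KO libraries at day 5, so that this sum, unlike COL2A1, was higher in PERK KO libraries; its part in the COL2A1 result was not tested.

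COL3A1, the chain of type III collagen of extensible tissues, had 0 counts in the 3 wild type libraries at day 0 and 19 in the PERK KO libraries, at 0.865, 0.0919 and 0.234 CPM. Most of these counts came from replicate 1. COL3A1 was called higher at day 0 (adjusted p = 0.0229) but not without that library (adjusted p = 0.156), nor without any one of the wild type libraries, with a length offset or with limma on log2 TPM. At day 5 wild type libraries held 174, 110 and 188 CPM and at day 10 they held 1880, 1180 and 2030 CPM. PERK KO replicates were at 0.23, 0.324 and 0.255 CPM at day 5 and 6.24, 2.49 and 7.63 CPM at day 10. The wild type sum at day 10 was at least 26100-fold higher than at day 0, against a floor of 3 counts over the group. Between genotypes the log2 fold change at day 10 was -8.27 ± 0.44 (adjusted p = 1.13e-15), and at day 3 the ratio of wild type to PERK KO rested on 239 against 1 counts (248-fold, 95% counting interval 44.1 to 9840, counting error only).

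**Figure D3:**
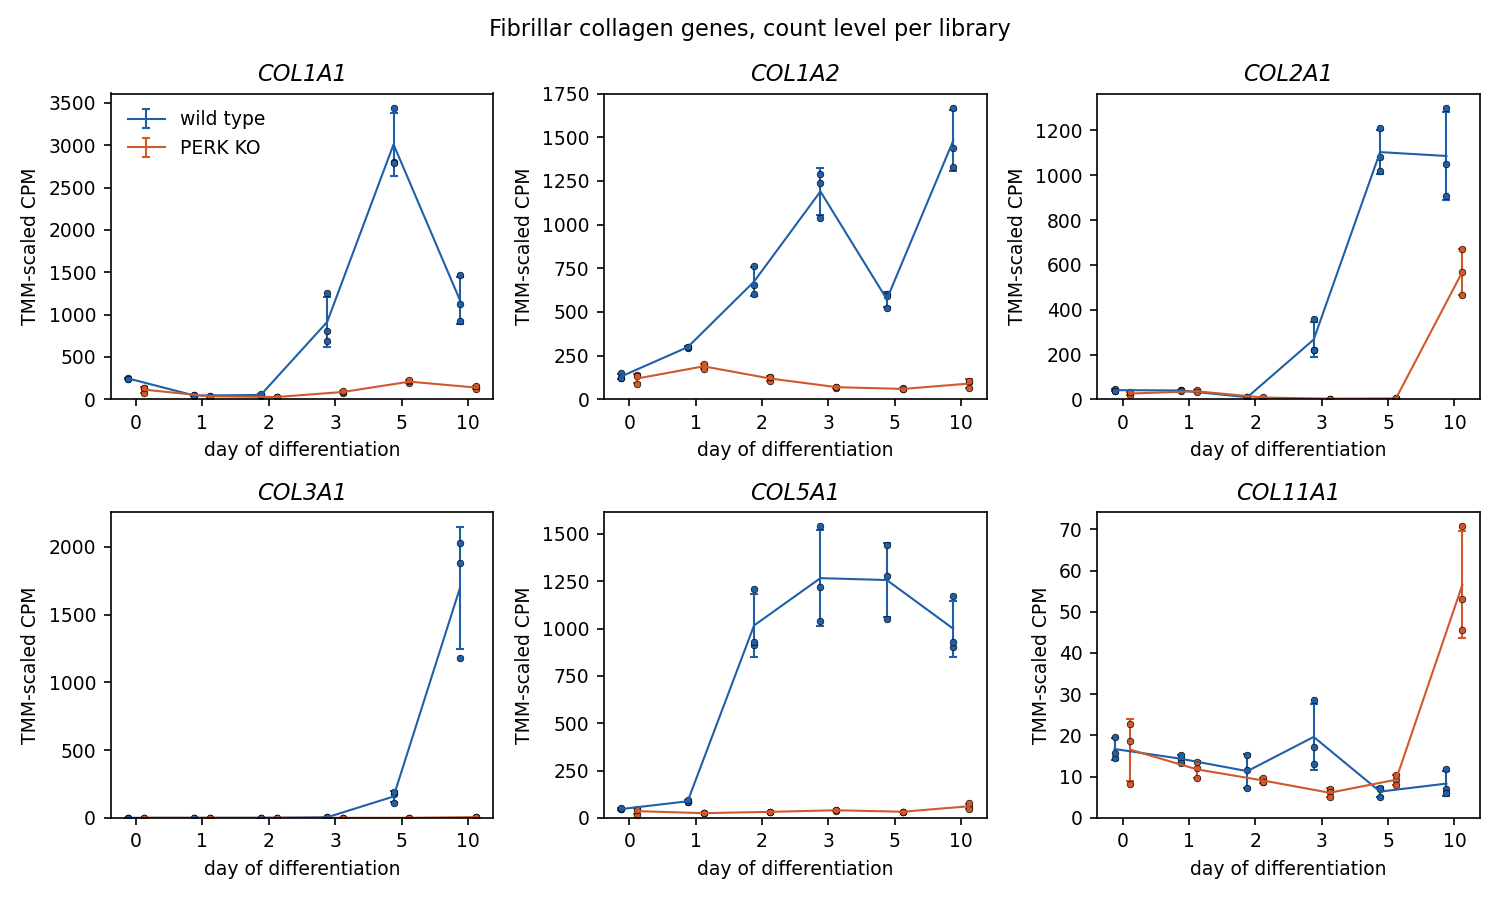
TMM-scaled CPM of 6 fibrillar genes in each library (points) with group mean and SD (lines and bars) by day. COL1A1 in wild type peaks at day 5 (2790 to 3440 CPM), and COL11A1 is the gene among the 6 that is higher in PERK KO at day 10 (45.6 to 70.9 against 6.04 to 11.8 CPM).

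COL5A1 and COL5A2 encode chains of type V collagen, which nucleates type I fibrils. COL5A1 stood at 45.0, 44.4 and 49.8 CPM in wild type libraries at day 0 and at 912, 928 and 1210 CPM at day 2. PERK KO libraries held 46.0, 16.0 and 43.7 CPM at day 0 and 29.8, 32.7 and 32.4 CPM at day 2. The step between days 1 and 2 was thus present in wild type and absent from the PERK KO values, and the log2 fold change was -1.82 ± 0.23 at day 1 (adjusted p = 5.46e-07), -5.0 ± 0.26 at day 2 (adjusted p = 5.27e-16) and -5.29 ± 0.26 at day 5 (adjusted p = 6.25e-17). COL5A2 (chromosome 2, 189031896 to 189225312, minus strand), 19149 bases from COL3A1 with which it lies tail to tail, had log2 fold changes of -5.44 ± 0.25 at day 3 (adjusted p = 1.42e-17) and -3.14 ± 0.22 at day 10 (adjusted p = 2.74e-13).

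Since COL5A1 had the largest called difference of the 42 genes at day 2, the 221 bases just before its annotated first exon (chr9:134641553-134641773, plus strand, RefSeq sequence of GRCh38.p14) are shown, with matches to GGGCGG, the core of GC boxes, on either strand in capitals. They hold 75.6% G and C and 2 matches, and 0 annotated exons of collagen genes overlap them. Among promoters in the table used, GGGCGG on either strand within the 250 bases before the start was found in 18 of 32 collagen genes with an entry (56.2%) and in 42.3% of 27305 genes. A match is a description of letters and not a shown binding site.
COL5A1 upstream: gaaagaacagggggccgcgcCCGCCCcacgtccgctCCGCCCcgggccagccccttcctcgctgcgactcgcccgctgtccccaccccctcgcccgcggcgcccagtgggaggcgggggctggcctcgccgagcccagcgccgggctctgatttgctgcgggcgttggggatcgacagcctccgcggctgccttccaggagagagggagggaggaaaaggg

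The remaining fibrillar genes did not move as 1 group. COL11A2, a chain of type XI collagen, reached 161, 195 and 218 CPM in wild type libraries at day 10 against 10.8, 5.85 and 8.58 CPM in PERK KO libraries (log2 fold change -4.51 ± 0.21, adjusted p = 1.37e-17). COL11A1, its partner chain, went the other way, at 11.8, 7.08 and 6.04 CPM against 53.1, 70.9 and 45.6 CPM (2.76 ± 0.31, adjusted p = 5e-09). The 2 chains of 1 collagen type were thus called in opposite directions at the same day. COL27A1, a shorter fibrillar collagen of cartilage matrix, was lower in PERK KO at day 3 by -1.36 ± 0.11 (adjusted p = 1.25e-11) and stood at 168, 177 and 184 CPM against 148, 141 and 163 CPM at day 10, where its log2 fold change was -0.23 (adjusted p = 0.0713, and 0.0375 with RLE scaling in place of TMM). COL5A3 and COL24A1 stayed under 5 CPM in every group mean.

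Type IV collagen is the network-forming collagen of basement membranes, and its genes lie in head-to-head pairs. COL4A1 and COL4A2 (chromosome 13, 110148963 to 110307233 and 110305812 to 110513209) overlap by 1422 bases in the annotation used. Since no label says whether counting used the strand, reads from that overlap could be split between them. In wild type libraries COL4A1 stood at 114, 117 and 120 CPM at day 0 and at 793, 884 and 745 CPM at day 10, and COL4A2 at 167, 166 and 170 CPM and 1270, 1430 and 1820 CPM. In PERK KO libraries COL4A1 held 274, 271 and 256 CPM and COL4A2 310, 311 and 288 CPM at day 10. Both rose in both genotypes between days 0 and 10 and rose less in PERK KO libraries. Their log2 fold changes between genotypes at day 10 were -1.6 ± 0.17 (adjusted p = 2.49e-09) and -2.31 ± 0.19 (adjusted p = 7.65e-12), and both were lower at day 3 (-0.81 ± 0.17 and -0.78 ± 0.18, adjusted p = 0.000197 and 0.000743).

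The TPM ratio of COL4A1 to COL4A2 varied less than that of the type I chains. It lay between 0.52 ± 0.0958 and 0.927 ± 0.0657 in the wild type groups and between 0.57 ± 0.0786 and 0.971 ± 0.0976 in the PERK KO groups (SD, n = 3). At day 10 it was 0.52 ± 0.0958 in wild type and 0.813 ± 0.00824 in PERK KO libraries, without overlap (two-sided exact permutation p = 0.1, the smallest possible). The exact permutation p was also 0.1 at day 5, but the genotypes nearly met there. The highest wild type ratio was then 0.771 and the lowest PERK KO ratio 0.772. At days 0 to 3 the libraries of the genotypes overlapped, with exact permutation p of 0.3 or more.

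Because these pairs share the space between their starts, stretches of it are shown with the CCAAT box, a common promoter element, on either strand in capitals. The RefSeq starts of COL4A1 and COL4A2 lie 126 bases apart with 1 CCAAT match between them, shown as the 30 bases of chr13:110307167-110307196, which 1 annotated exon of a collagen gene overlaps. The window between COL4A6 and COL4A5, chrX:108439588-108439708, holds 2 matches in 121 bases and overlaps 0 such exons. Both stretches are given on the plus strand from RefSeq, GRCh38.p14. CCAAT on either strand in the 250 bases before the start was found in 9 of 32 collagen genes (28.1%) and in 33.0% of 27305 genes.
COL4A1 and COL4A2: gggccgagctccCCAATttgttggcgctgc
COL4A6 and COL4A5: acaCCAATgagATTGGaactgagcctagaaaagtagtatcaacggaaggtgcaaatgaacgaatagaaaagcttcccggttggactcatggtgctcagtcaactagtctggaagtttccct

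COL4A5 and COL4A6, further chains of type IV collagen, rose from day 0 to day 10 in both genotypes. COL4A6 stood at 19.8, 22.7 and 25.2 CPM in wild type and 31.0, 14.8 and 24.6 CPM in PERK KO libraries at day 0. At day 10 it stood at 301, 376 and 306 CPM and at 230, 183 and 244 CPM. This gene was the least different of the abundant type IV chains at that day, with a log2 fold change of -0.58 ± 0.16 (adjusted p = 0.00255), while COL4A5 differed by -1.17 ± 0.14 (adjusted p = 1.73e-08). With limma on log2 TPM in place of counts, COL4A5 and COL4A6 were at -0.66 and -0.11 at day 10 (adjusted p = 0.0653 and 0.703), past neither threshold. COL4A3 and COL4A4 stayed under 5 CPM in every group mean, and COL4A4 was higher in PERK KO at day 10 (2.49 against 0.606 CPM, log2 fold change 2.01 ± 0.41, adjusted p = 7.7e-05).

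COL18A1, whose C-terminal fragment is endostatin, was the collagen gene with the highest mean TPM in wild type libraries at day 10 (841 TPM, against 161 TPM in PERK KO libraries). It stood at 590, 607 and 599 CPM in wild type at day 0 and at 2800, 3050 and 4110 CPM at day 10. PERK KO libraries held 577, 478 and 575 CPM and then 493, 524 and 462 CPM. No PERK KO comparison with day 0 was called for this gene, and the difference between genotypes was -2.12 ± 0.16 at day 5 (adjusted p = 9.55e-13) and -2.75 ± 0.16 at day 10 (adjusted p = 4.13e-15). COL15A1, a related proteoglycan core, came up at day 10, at 24.2, 23.5 and 27.6 CPM in wild type and 3.2, 1.76 and 2.37 CPM in PERK KO libraries (log2 fold change -3.36 ± 0.29, adjusted p = 2.63e-11).

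**Figure D4:**
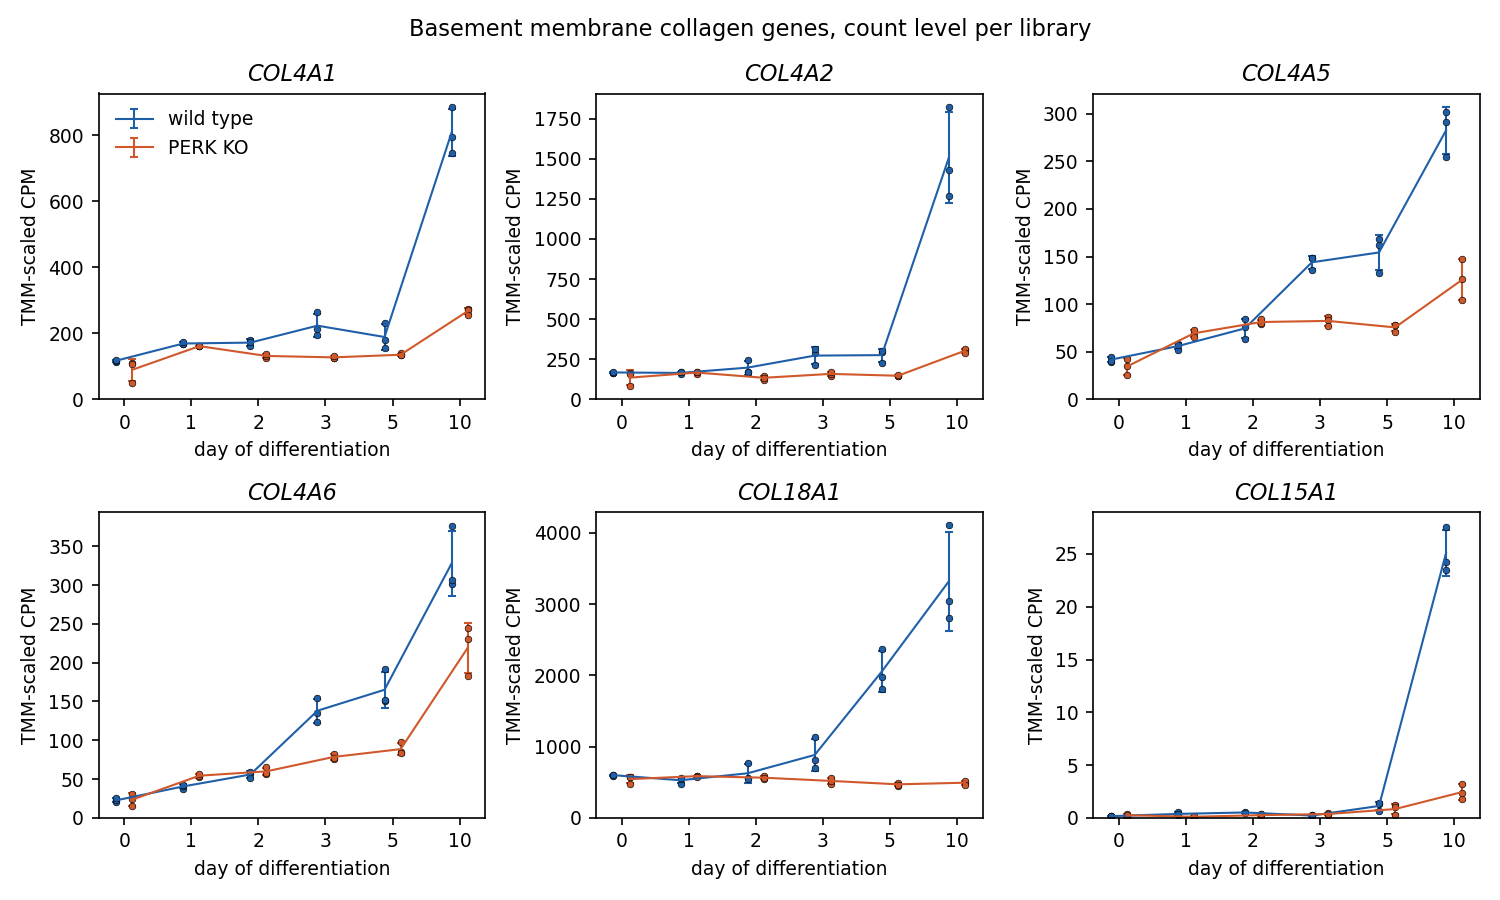
TMM-scaled CPM of 6 basement membrane genes in each library (points) with group mean and SD (lines and bars) by day. COL18A1 in PERK KO libraries stays between 451 and 589 CPM, while wild type libraries reach 2800 to 4110 CPM at day 10.

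Type VI collagen forms beaded filaments at the border of cells and fibrils. Among the other collagens COL6A1 and COL6A2 had the highest mean TPM in wild type libraries from day 1 to day 10 and in PERK KO libraries from day 1 to day 3. COL26A1 had the highest at day 0 in both genotypes and at day 10 in PERK KO libraries, and COL9A3 at day 5 in the latter. COL6A1 stood at 148, 159 and 161 CPM in wild type at day 0 and at 2140, 2190 and 2610 CPM at day 2. PERK KO libraries held 126, 89.6 and 135 CPM and then 614, 709 and 698 CPM. Both genotypes rose, and the wild type level then settled between 723 and 1340 CPM while that of PERK KO libraries fell to 91, 86.8 and 86.8 CPM at day 10. The log2 fold change was -1.78 ± 0.15 at day 2 (adjusted p = 3.77e-11), -0.49 ± 0.15 at day 3 (adjusted p = 0.00644) and -3.67 ± 0.16 at day 10 (adjusted p = 6.75e-18).

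COL6A2, the next gene on chromosome 21, 93046 bases away on the same strand, followed another course. It rose steadily in wild type group means from 145 CPM at day 0 to 829 CPM at day 10 and ended at 52.4, 48 and 49.7 CPM in PERK KO libraries. The difference between genotypes was -1.62 ± 0.16 at day 3 (adjusted p = 5.29e-10) and -4.05 ± 0.18 at day 10 (adjusted p = 4.36e-18). The TPM ratio of COL6A1 to COL6A2 was highest at day 2 in wild type (4.08 ± 0.277) and at day 3 in PERK KO libraries (3.53 ± 0.0701). At days 1 and 2 it was lower in PERK KO libraries, at 1.64 and 2.58 against 2.53 and 4.08 in wild type. At days 3 and 5 the order was the other way: it was 1.6 ± 0.0545 and 0.967 ± 0.0121 in wild type against 3.53 ± 0.0701 and 3.13 ± 0.158 in PERK KO libraries. The genotypes did not overlap at any of these 4 days (two-sided exact permutation p = 0.1, the smallest possible). COL6A3, the third chain of the type VI trimer, was much rarer per length (5.67 TPM at day 10 in wild type, against 356 TPM for COL6A2), at 39.6, 21 and 46.3 CPM against 3.15, 2.18 and 3.06 CPM at day 10 (-3.67 ± 0.32, adjusted p = 3.57e-11).

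The transmembrane collagens carry a membrane anchor and collagen domains outside the cell. COL13A1, found at adhesion sites and the neuromuscular junction, stood at 4.81, 3.11 and 4.7 CPM in wild type at day 0 and at 263, 271 and 312 CPM at day 2. PERK KO libraries held 5.37, 5.33 and 4.79 CPM and then 12.1, 15.9 and 12.7 CPM. It was lower in PERK KO at day 1 already (log2 fold change -3.07 ± 0.21, adjusted p = 2.7e-12), the largest difference of any collagen gene at that day, and by -4.38 ± 0.2 at day 2 (adjusted p = 2.54e-17). At day 5 the log2 fold change was -0.67 ± 0.18 (adjusted p = 0.00155). COL23A1 stood at 76.9, 76.4 and 112 CPM in wild type and 5.45, 3.21 and 4.57 CPM in PERK KO libraries at day 10 (-4.33 ± 0.21, adjusted p = 3.26e-17). COL17A1, a hemidesmosome protein of basal epithelium, was higher in PERK KO at days 5 and 10, from low levels (3.84 against 0.687 CPM at day 10, 2.45 ± 0.33, adjusted p = 1.5e-07).

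The 3 genes of type IX collagen, which decorates type II fibrils, differed in direction at day 5 and were all higher in PERK KO at day 10. COL9A3 stood at 51.4, 47.9 and 47.9 CPM in wild type at day 0 and 22.3, 23.6 and 24.1 CPM at day 5. PERK KO libraries held 36, 41.9 and 35 CPM and then 140, 128 and 139 CPM. It was higher in PERK KO by 2.54 ± 0.15 at day 5 (adjusted p = 3.77e-15) and 2.86 ± 0.16 at day 10 (adjusted p = 5.78e-16). COL9A2 was lower in PERK KO at days 2, 3 and 5, at 146, 162 and 213 CPM in wild type against 14.8, 13.1 and 13.2 CPM at day 3 (-3.66 ± 0.18, adjusted p = 3.88e-17). At day 10 it was higher in PERK KO (23.3 against 17.7 CPM, 0.4 ± 0.16, adjusted p = 0.0322). COL9A1 changed sides more than once: it was higher in PERK KO at day 2 (1.55 ± 0.15, adjusted p = 6.86e-10), lower at day 5 (-1.77 ± 0.15, adjusted p = 1.09e-11) and higher at day 10 (20.3 against 15.7 CPM, 0.36 ± 0.14, adjusted p = 0.0268).

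**Figure D5:**
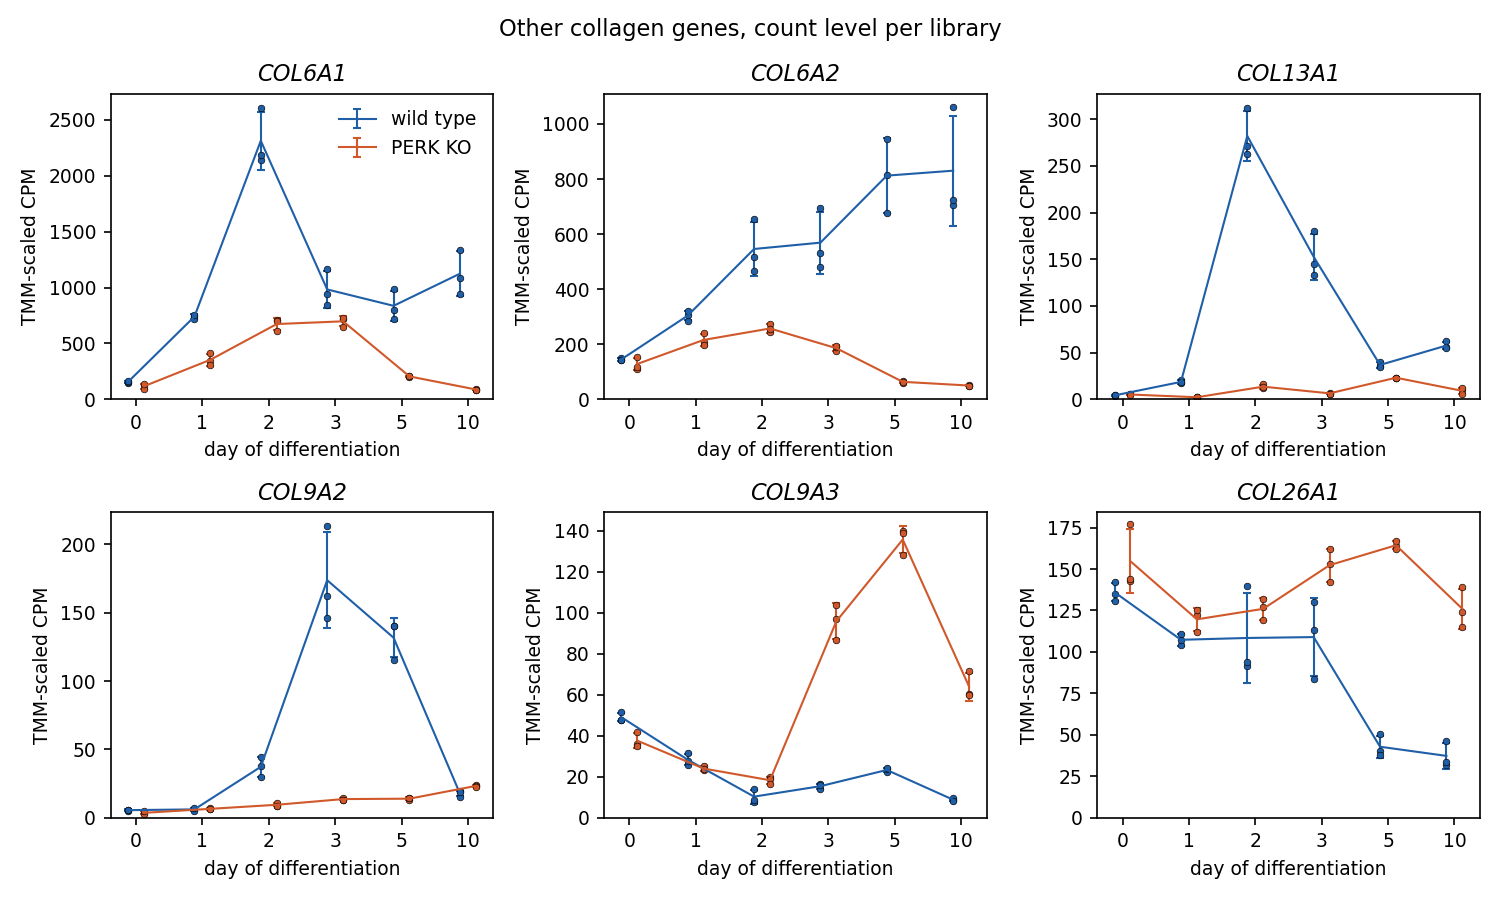
TMM-scaled CPM of 6 other collagen genes in each library (points) with group mean and SD (lines and bars) by day. COL6A1 and COL13A1 peak at day 2 in wild type, and COL9A3 and COL26A1 end higher in PERK KO libraries (59.8 to 71.8 and 115 to 139 CPM at day 10, against 8.27 to 9.44 and 31.8 to 46.3 CPM).

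COL26A1, an extracellular matrix gene outside the classical classes, was not called against day 0 at any day in PERK KO libraries, at 143, 177 and 144 CPM at day 0 and 124, 139 and 115 CPM at day 10. In wild type libraries it fell from 142, 135 and 131 CPM to 31.8, 33.9 and 46.3 CPM. The difference was 1.94 ± 0.16 at day 5 (adjusted p = 1.06e-11) and 1.76 ± 0.16 at day 10 (adjusted p = 8.26e-11). COL7A1, which forms the anchoring fibrils of skin, was lower in PERK KO at day 10 by -1.36 ± 0.18 (adjusted p = 8.97e-08). COL16A1, a fibril-associated collagen, was lower at day 3 (-1.38 ± 0.14, adjusted p = 7.72e-10), and COL14A1, another, was higher at day 3 (1.57 ± 0.24, adjusted p = 2.44e-06) and lower at day 10 (-1.37 ± 0.23, adjusted p = 5.49e-06).

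COL6A6, a rarer type VI chain, reached 32.9, 40.8 and 31.2 CPM in wild type libraries at day 5 against 0.172, 0.486 and 0.307 CPM in PERK KO libraries (-6.72 ± 0.4, adjusted p = 3.35e-15). COL8A2, a short-chain collagen of vessel walls and the eye, was higher in PERK KO at day 3 (5.21 against 0.837 CPM, 2.62 ± 0.26, adjusted p = 7.46e-10). Among the rest, COL10A1, COL19A1, COL20A1 and COL28A1 stayed under 5 CPM in every group mean. COL12A1 at day 0 was higher in PERK KO by 1.4 ± 0.36 (adjusted p = 0.00577), but its libraries overlapped and the difference was 0.48, with an adjusted p of 0.573, once effective transcript length was taken into account.

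In time, wild type collagen genes were called against day 0 at 28, 27, 34, 34 and 38 of 42 at days 1, 2, 3, 5 and 10, beside 44.6%, 50.5%, 56.8%, 61.9% and 69.2% of all genes. By day 3, 24 were higher and 10 lower, beside 29.3% and 27.5% of all genes, and by day 10, 26 were higher and 12 lower, beside 34.9% and 34.3%. PERK KO collagen genes were called at 23, 23, 20, 33 and 31 of 42, beside 43.1%, 41.4%, 40.3%, 48.8% and 61.8% of all genes. There, 7 were higher and 13 lower at day 3, beside 18.5% and 21.8% of all genes, and 19 higher and 12 lower at day 10, beside 29.9% and 31.9%. The change from day 0 itself differed between genotypes (edgeR interaction term, adjusted p under 0.05) for 9, 16, 24, 26 and 27 of the 42 genes at days 1, 2, 3, 5 and 10, beside 23.1%, 35.7%, 38.9%, 50.1% and 55.7% of all genes. Of the 11 fibrillar genes 8 were higher than at day 0 in wild type at day 3, and 0 in PERK KO, where 6 were lower.

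Genes that serve collagen were read from fixed lists. Of 18 tested genes of collagen folding and modification 15, 12, 15 and 17 were lower in PERK KO at days 2, 3, 5 and 10 and 0 were higher, beside 21.7%, 23.2%, 30.5% and 34% lower and 20.9%, 21.9%, 28.6% and 33.3% higher over all genes. At day 0, 4 were higher and 1 lower, beside 12.5% and 8.64% of all genes. The list's median log2 fold change was then 0.01, beside 0.03 over all genes. These day 0 list counts were not rerun without the PERK KO library that stood apart. P3H2, a prolyl 3-hydroxylase, stood at 16.3 CPM against 104 CPM at day 10 (-2.68 ± 0.15, adjusted p = 1.19e-15), and FKBP10, a collagen prolyl isomerase, at 252 against 838 CPM (-1.74 ± 0.13, adjusted p = 1.41e-12). SERPINH1, the collagen chaperone of the endoplasmic reticulum, was lower at day 5 (293 against 1350 CPM, -2.21 ± 0.16, adjusted p = 8.17e-13). The list's medians were -0.82, -0.97, -1.3 and -1.29 at days 2, 3, 5 and 10, beside 0, -0.03, -0.02 and 0 over all genes.

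Of 18 tested genes of export, trimming and cross-linking 9, 10, 10 and 11 were lower and 1, 3, 5 and 5 higher at days 2, 3, 5 and 10. The shares of all genes were 21.7%, 23.2%, 30.5% and 34% lower and 20.9%, 21.9%, 28.6% and 33.3% higher. LOX, the copper enzyme that starts collagen cross-links, stood at 94 CPM in wild type and 0.382 CPM in PERK KO libraries at day 2 (-7.93 ± 0.38, adjusted p = 1.16e-16), and LOXL4 at 76.2 and 1.47 CPM at day 10 (-5.68 ± 0.33, adjusted p = 3.41e-15). PCOLCE2, which aids removal of the procollagen end, was higher in PERK KO at day 10 (1.81 ± 0.19, adjusted p = 8.27e-10). Of 9 tested receptors 2, 2, 2 and 5 were lower and 1, 2, 2 and 1 higher at those days, so that at days 2, 3 and 5 the lower calls were near or below the shares over all genes. MRC2, the collagen uptake receptor, was lower in PERK KO at day 10 (107 against 936 CPM, -3.12 ± 0.17, adjusted p = 3.72e-16). ITGA2, a collagen-binding integrin chain, was higher at that day (20.9 against 4.78 CPM, 2.12 ± 0.35, adjusted p = 4.98e-06).

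Of 9 tested collagen-binding matrix genes 4, 5, 7 and 6 were lower and 2, 1, 1 and 1 higher at days 2, 3, 5 and 10. Of 11 basement membrane partners 5, 5, 6 and 7 were lower and 1, 2, 0 and 0 higher. At days 2, 3 and 5, 21.7%, 23.2% and 30.5% of all genes were lower and 20.9%, 21.9% and 28.6% higher. At day 10, 34% of all genes were lower and 33.3% higher. FN1, fibronectin, stood at 22800 CPM in wild type and 1230 CPM in PERK KO libraries (-4.21 ± 0.26, adjusted p = 1.28e-14), and SPARC, a collagen-binding matrix protein, at 1500 and 236 CPM (-2.67 ± 0.13, adjusted p = 1.04e-16). NID2, which ties laminin to type IV collagen, stood at 1520 and 80.4 CPM (-4.25 ± 0.22, adjusted p = 2.42e-16). Of 7 tested genes of collagen breakdown and its inhibitors 4 were lower and 1 higher at day 10; these 5 calls are near the 67.3% of all genes called. Among the lower ones was TIMP3, a metalloprotease inhibitor, at 227 and 15.9 CPM (-3.83 ± 0.19, adjusted p = 7.13e-17).

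Markers of cell types differed between the genotypes along with these genes. Cardiomyocyte markers (8 of 8 above 1 CPM in both genotypes at day 10) summed to 10600 to 13400 CPM in wild type and 80.7 to 341 CPM in PERK KO libraries. Pluripotency markers summed to 586 to 734 CPM and 1970 to 2020 CPM at that day, and neuroectoderm markers to 2.16 to 2.79 CPM, with SOX1 at 0, and 539 to 706 CPM. Epicardial markers (5 genes) were low, at 6.43 to 8.51 CPM in wild type and 11.4 to 16.2 CPM in PERK KO libraries. Earlier, pluripotency markers summed to 1260 to 1890 CPM and 6870 to 7570 CPM at day 3. Cardiomyocyte markers summed to 4150 to 6380 CPM and 32.7 to 36.5 CPM at day 5. Mesenchyme markers other than collagens (8 genes) were also summed. At day 0 the sum was 1090 to 1240 CPM in wild type and 720 to 963 CPM in PERK KO libraries. Only 3 of the 8 were above 1 CPM then, with DCN and LUM at 0 in wild type. The day 0 sum therefore does not by itself show mesenchyme cells. The sum was 783 to 950 CPM and 100 to 108 CPM at day 3, and 133 to 169 CPM and 87.5 to 96 CPM at day 10. At day 3 DCN, LUM and POSTN were at 0 in PERK KO libraries and no higher than 0.112, 0.224 and 0.112 CPM in wild type, and at day 10 POSTN stood at 1.71 to 2.73 CPM in PERK KO and 0.224 to 1.08 CPM in wild type libraries. Endothelial markers summed to 578 to 697 CPM and 42.8 to 65.5 CPM at day 10. The part of these marker differences in the collagen results was not tested.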

How the data were processed

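The deposited values are RSEM expected counts, TPM and effective lengths per gene, per the file headers. The deposited count matrix equalled the 36 sample files. Reads were handled with CASAVA, FastQC, STAR and RSEM on GRCh38 (hg38), per the submitters' processing notes, with no version named there. Gene identifiers matched GENCODE release 29 for 44 of 44 collagen genes, and 32 of 44 had a RefSeq promoter entry. The design text names days 0, 2 and 6, whereas the labels give days 0, 1, 2, 3, 5 and 10, which were used. The pattern of members, the lists and the tests were chosen with earlier results of these data known.

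Expected counts were rounded, since 6.53% to 9.43% of values per library were fractional, filtered with filterByExpr (19772 genes kept), scaled by TMM and fitted as 12 groups in edgeR 4.0.16 with limma 3.58.1 under R 4.3.3, with 24 residual degrees of freedom. Each contrast was tested with the quasi-likelihood F test and Benjamini-Hochberg adjustment at 0.05, and each SE is the size of the fitted log2 change over the root of its F value. Levels are TMM-scaled CPM per library, and genes were compared with each other only in TPM. Chain ratios were tested with exact permutation in scipy 1.17.1. Per-library values are given for the most abundant members of each class and for members with the largest called differences, with at least 5 CPM in 1 group, and up to 4 genes with the smallest p were taken from each other list. The fit was tested on simulated data. Alternatives were RLE scaling, other filters, a length offset, DESeq2 1.42.0, limma on log2(TPM + 0.5), fits to the compared libraries, a replicate block and leaving libraries out. Intervals and floors cover counting error only.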

Additional observations from a re-analysis of the deposited data

Results flagged for a closer look

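A difference between genotypes in the change from day 0, tested by the interaction term of the edgeR fit over all 36 libraries, marked the genes below. The 3 genes with the smallest p at each day are given here as the PERK KO change minus the wild type change on the log2 scale, each with its SE. All of these terms share the day 0 libraries.

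At day 1 the term was -3.36 ± 0.29 for COL13A1, 1.46 ± 0.21 for COL9A1 and -1.43 ± 0.32 for COL5A1 (adjusted p = 1.54e-09, 5.15e-06 and 0.00135). At day 2 it was -4.67 ± 0.28 for COL13A1, -4.61 ± 0.33 for COL5A1 and -2.36 ± 0.23 for COL1A2 (adjusted p = 6.21e-14, 2.94e-12 and 1.32e-09). COL13A1 and COL5A1 thus ran below the wild type course at both days.

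At day 3 the term was -5.82 ± 0.29 for COL2A1, -4.87 ± 0.28 for COL13A1 and -3.96 ± 0.23 for COL1A2 (adjusted p = 8.26e-16, 1.2e-14 and 1.48e-14). At day 5 it was -7.42 ± 0.3 for COL2A1, -5.38 ± 0.31 for COL5A2 and -3.5 ± 0.23 for COL6A2 (adjusted p = 6.34e-18, 1.15e-14 and 1.15e-13). At day 10 it was -3.9 ± 0.23 for COL1A2, -3.88 ± 0.23 for COL6A2 and 3.24 ± 0.21 for COL9A3 (adjusted p = 1.44e-14, 1.47e-14 and 1.24e-13). COL9A3 was the gene among these whose course in PERK KO libraries ran above that of wild type at day 10.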

How the results depend on the processing

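Of 143 calls of a collagen gene between genotypes, 142 had the same direction in every alternative run and 100 stayed called in every one; the exception in direction was COL27A1 at day 5. Counts of called collagen genes stayed within 1.5 times the reported count in 21 of 21 contrasts with RLE scaling, both other filters, the length offset, DESeq2, the replicate block over all libraries and without the 2 libraries that stood apart. With limma on log2 TPM the genotype count at day 0 was 14, beside 23.5% of all genes. With only the compared libraries the genotype count was 0 at day 0 and 14 at day 1, beside 1.87% and 44.4% of all genes. The PERK KO counts against day 0 were then 14 at day 2 and 21 at day 5, beside 26.6% and 35.9% of all genes. The cause was not tested. With the replicate block and only the compared libraries the genotype counts were 0 at day 0 and 14 at day 1, beside 0.0% and 43.9% of all genes. At day 0, 2 collagen genes had an unadjusted edgeR p under 0.05, beside 2597 of 16248 genes. The PERK KO counts against day 0 were 12, 14, 12 and 19 at days 1, 2, 3 and 5. The shares over all genes were 19.9%, 18.3%, 16.0% and 28.9%. Replicate numbers did not pair the libraries consistently: correlations of same-numbered deviations between genotypes lay from -0.132 to 0.316. At day 3 they were 0.316, -0.011 and 0.284, with a mean of 0.196 against -0.098 for different numbers. What the numbers share at day 3 was not tested.

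Leaving out 1 library at a time, the genotype counts lay between 4 and 11 at day 0, 7 and 8 at day 1, 17 and 20 at day 2, 33 and 35 at day 3, 30 and 35 at day 5, and 32 and 34 at day 10. The interaction counts lay between 5 and 10 at day 1 (5 without PERK KO day 1 replicate 1), 15 and 17, 22 and 28, 25 and 27, and 26 and 29 at days 2, 3, 5 and 10. Shares over all genes in these runs are not given here. Low-count genes (COL3A1 at days 0 to 3, COL4A3, COL10A1, COL19A1 and COL20A1) are limited by depth.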

Other observations

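COL22A1, a collagen of tissue junctions in muscle and tendon, was too rare to be tested. It had 55 counts in all, spread over 16 of the 18 wild type libraries, and 0 counts in the 18 PERK KO libraries. At day 10 the wild type sum of 24 counts was at least 8.95-fold higher than that of PERK KO libraries, against a floor of 3 counts over the group. The gene was singled out after its values were seen, and the difference was not tested.

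Collagen genes that neighbour each other did not always move together. COL3A1 and COL5A2 lie tail to tail on chromosome 2. COL5A2 stood at 288, 307 and 229 CPM in wild type at day 2, when COL3A1 stood at 0.0558, 0.111 and 0.312 CPM, and at 212, 139 and 151 CPM at day 10, when COL3A1 had reached 1180 to 2030 CPM. COL9A1 and COL19A1 lie 5084 bases apart on chromosome 6, and COL19A1 had 111 counts in wild type and 1 in PERK KO libraries at day 3, when COL9A1 was higher in PERK KO (log2 fold change 0.94 ± 0.15, adjusted p = 4.05e-06).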
